A study of Mus musculus with 9 samples.

Results

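The mitochondrially encoded transcripts are the RNAs of the 37 genes on the mitochondrial chromosome, MT. They were chosen as every row of the gene table whose gene name begins with mt-, which gave 37 of 56748 genes: 13 protein genes, 2 rRNA genes and 22 tRNA genes. RNA sequencing measured them in 9 libraries, 3 in each of 3 groups, all from the murine macrophage line RAW264.7. The first group is a model control that received PBS, and both particle groups were also under this model, of which the labels say no more. Cells of the second group were given P-Mn@mHSA, particles that carry nanoenzymes, materials with enzyme-like activity. The P-Mn/TI@mHSA group was given such particles that also carry a TRAF6 inhibitor, so by their labels the 2 particle groups differ by the inhibitor. Neither a dose nor a time is used here. The labels speak of triplicates without naming separate cultures. A p-value therefore reflects only how these libraries scatter, and that scatter may be technical.

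Mitochondrial DNA is transcribed from both of its strands as long precursors. These are cut, mostly at the tRNAs that lie between the other genes, into mRNAs, rRNAs and tRNAs. The mRNAs encode core subunits of complexes I, III and IV of the respiratory chain and of ATP synthase, and the rRNAs form the mitochondrial ribosome that translates them. All other proteins of mitochondria come from nuclear genes, and pieces of mitochondrial DNA have also been copied into the nuclear genome.

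Total counts were 13994570 to 15543439 per library. The summed level of 10 macrophage markers was 6137 to 6427 CPM (read counts scaled to a common library size by TMM) in PBS, 4931 to 5227 with P-Mn@mHSA and 5079 to 5467 with P-Mn/TI@mHSA. Of the 9 tested macrophage markers 4 were higher and 5 lower in both particle groups against PBS, with medians of -0.47 and -0.57 on the log2 scale. Among them Adgre1 was at -1.95 and -1.90, Lyz2 at -1.68 and -1.86, and Itgam at -1.34 and -1.64 (edgeR adjusted p of at most 2.1e-11), named after their values were seen. Ptprc, at -0.60 and -0.83, and Cd14, at -0.47 and -0.57, also fell. The 4 that rose were Csf1r (0.37 and 0.55), Fcgr1 (0.735 and 0.55), Spi1 (0.32 and 0.37) and Cd68 (0.17 and 0.30), at edgeR adjusted p of at most 0.017. The part of this in the mitochondrial results was not tested. Of 15 markers of other cell types, 6 were at 0 in all libraries, among them Krt18, Col1a2, Cd3g and Ly6g, and the sum of all 15 ran from 3.82 to 7.50 CPM over the 9 libraries. The labels give total RNA as input and speak of mRNA profiles, and the sources used here do not give how mRNA was selected or rRNA removed.

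The mt- genes took 2.20, 2.05 and 1.77% of all counts in the PBS libraries. They took 1.35, 1.79 and 1.31% with P-Mn@mHSA, and 1.12, 1.34 and 1.24% with P-Mn/TI@mHSA. The P-Mn/TI@mHSA libraries lay below all PBS libraries, by 0.70 on the log2 scale, while replicate 2 of P-Mn@mHSA reached into the PBS range. By an exact two-sided permutation test over 3 against 3 libraries, whose smallest p is 0.1, p was 0.2 for P-Mn@mHSA against PBS, 0.1 for P-Mn/TI@mHSA against PBS and 0.2 between the particle groups. In bulk RNA, fewer mitochondrial genomes per cell and less RNA per genome cannot be told apart. As a share of all counts, the value also depends on the RNA of nuclear genes. The gene mt-Co1 made up 65.3 to 67.8% of the mt- counts in PBS, 55.1 to 57.9% with P-Mn@mHSA and 54.3 to 55.6% with P-Mn/TI@mHSA. Without the most counted gene of each class, which is mt-Co1 among the protein genes, the log2 differences of the share were -0.07 for P-Mn@mHSA and -0.26 for P-Mn/TI@mHSA against PBS.

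Of the 37 genes, 25 passed the filter on low counts: 12 protein genes, both rRNA genes and 11 tRNA genes. In P-Mn@mHSA against PBS, 6 rose and 5 fell (edgeR quasi-likelihood test, Benjamini-Hochberg adjusted p under 0.05 over all 12454 genes tested). Over all tested genes 48.5% were called in this comparison, 24.3% higher and 24.1% lower, so the members' share is near the background. In P-Mn/TI@mHSA against PBS, 8 rose and 9 fell, beside 54.4% of all genes called, 27.1% higher and 27.3% lower. Between the particle groups, 0 were higher and 4 were lower with the inhibitor, beside 3.82% of all genes called, 1.48% higher and 2.34% lower. The median log2 fold changes of the 25 genes were 0.06, 0.37 and -0.04 in these comparisons, against -0.00, -0.01 and -0.01 over all genes tested. The CPM values of both groups did not overlap for 11, 17 and 6 of the 25 genes, beside 54.6, 61.5 and 24% of all genes tested. Both comparisons with PBS use the same PBS libraries.

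**Figure D1:**
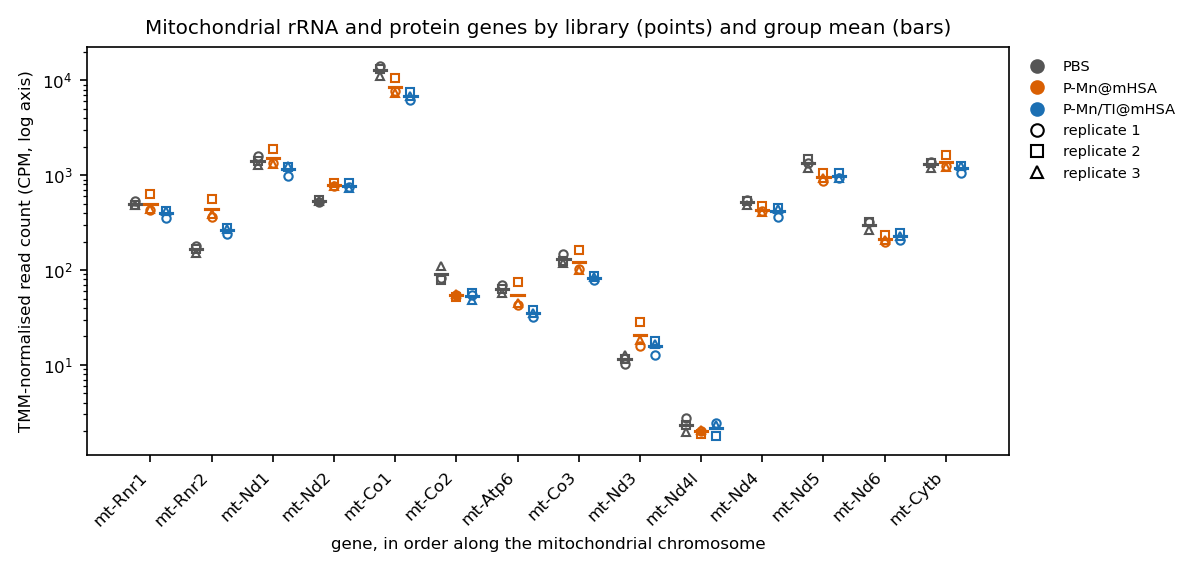
TMM-normalised read count (CPM, log axis) of the 14 tested mitochondrial rRNA and protein genes in the 9 libraries, in gene order. Points are libraries, the shape gives the replicate and bars are group means. mt-Rnr2 is higher in all particle libraries than in PBS, mt-Co1 and mt-Nd5 are lower, and replicate 2 of P-Mn@mHSA is the highest of its group for most genes.

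The 2 rRNAs did not move together. mt-Rnr2 (MT, 1094 to 2675), the RNA of the large mitochondrial ribosomal subunit, stood at 178.5, 165.8 and 152.0 CPM in PBS. It reached 363.9, 564.0 and 390.2 CPM with P-Mn@mHSA, and 242.4, 278.5 and 268.2 CPM with P-Mn/TI@mHSA. The 3 groups did not overlap, and the level was highest with the particle alone. The log2 fold change was 1.41 ± 0.11 (SE; edgeR adjusted p = 1.47e-09) for P-Mn@mHSA against PBS. It was 0.67 ± 0.11 (edgeR adjusted p = 3.12e-05) for P-Mn/TI@mHSA against PBS, and -0.74 ± 0.11 (edgeR adjusted p = 0.00037) between the particle groups.

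mt-Rnr1 (MT, 70 to 1024), the RNA of the small subunit, stood at 535.4, 484.2 and 488.4 CPM in PBS, 429.0, 633.1 and 444.4 CPM with P-Mn@mHSA, and 354.0, 422.2 and 417.6 CPM with P-Mn/TI@mHSA. The P-Mn@mHSA libraries lay on both sides of PBS (log2 fold change -0.00 ± 0.10, edgeR adjusted p = 0.993). The P-Mn/TI@mHSA libraries all lay below PBS, with a fall of -0.34 ± 0.10 (edgeR adjusted p = 0.00901) that missed the threshold by DESeq2, by limma and without replicate 1 of P-Mn/TI@mHSA, at adjusted p of up to 0.0857. Without replicate 2 of P-Mn@mHSA, mt-Rnr1 was also lower in that group, by -0.20 (edgeR adjusted p = 0.0222).

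Within a library, mt-Rnr2 had 0.334, 0.342 and 0.311 reads per mt-Rnr1 read in PBS. The ratio was 0.848, 0.891 and 0.878 with P-Mn@mHSA, and 0.685, 0.660 and 0.642 with P-Mn/TI@mHSA. These values do not depend on library scaling, and the 3 groups were well separated. The ratio was 2.65-fold higher with P-Mn@mHSA and 2.01-fold higher with P-Mn/TI@mHSA than in PBS, each with an exact permutation p of 0.1, the smallest possible. This ratio was chosen after its values were seen. Per length, mt-Rnr2 was below mt-Rnr1 in all 9 libraries, at 0.188 to 0.538 of its FPKM, the read count scaled for gene length and depth. The mitochondrial ribosome holds the 2 rRNAs in equal number.

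Together, the rRNAs gave 3.51, 3.41 and 3.90 reads per 100 reads of the mitochondrial protein genes in PBS. They gave 6.21, 7.02 and 6.71 with P-Mn@mHSA, and 5.56, 5.47 and 5.75 with P-Mn/TI@mHSA. The groups did not overlap in any comparison. The log2 differences of the ratio were 0.88 for P-Mn@mHSA and 0.64 for P-Mn/TI@mHSA against PBS, and -0.25 between the particle groups, each with an exact two-sided permutation p of 0.1. Restricted to genes with under 10% of their sequence in nuclear transcripts, a choice made after seeing the data, they became 0.50, 0.17 and -0.33. Both the higher mt-Rnr2 and the lower mt-Co1 enter this ratio.

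The cytosolic 18S rRNA gene Rn18s-rs5, looked at after its values were seen, did not follow mt-Rnr2. It stood at 2818 ± 574.7 CPM (SD, n = 3) in PBS, 1791 ± 137.2 with P-Mn@mHSA and 2423 ± 613.8 with P-Mn/TI@mHSA. Its log2 fold changes against PBS were -0.65 (edgeR adjusted p = 0.00031) and -0.22 (edgeR adjusted p = 0.167). The nuclear retained RNAs Malat1 and Neat1, also chosen after their values were seen, fell by 2.51 and 1.52 on the log2 scale with P-Mn@mHSA, and by 2.47 and 1.72 with P-Mn/TI@mHSA. Of 10 structured nuclear-encoded RNAs in the table, 6 were at 0 in all libraries. Only Rn7sk was tested, with 10 to 31 counts per library. Its P-Mn@mHSA libraries lay above those of both other groups, but it passed the threshold in no comparison. It was at 0.86 and -0.15 against PBS and at -1.01 between the particle groups (edgeR adjusted p = 0.0763, 0.787 and 0.152). The part of RNA selection or of RNA from other compartments in the mitochondrial results was not tested.

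**Figure D2:**
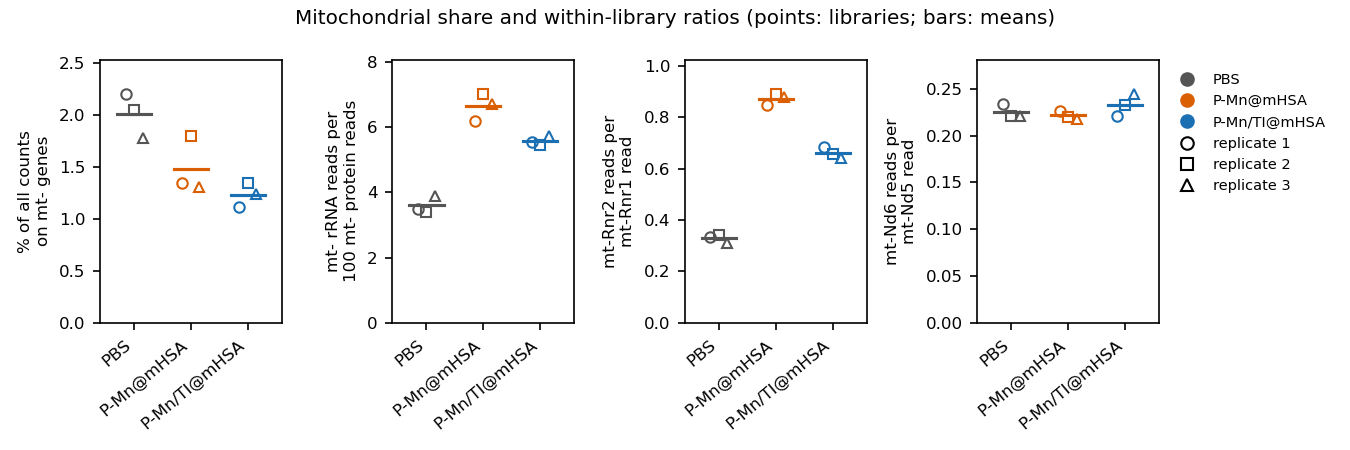
The share of all counts on mt- genes and 3 ratios within a library, for the 9 libraries in 3 groups. Points are libraries, the shape gives the replicate and bars are means. The rRNA to protein ratio and the mt-Rnr2 to mt-Rnr1 ratio separate all 3 groups, while mt-Nd6 stays at 0.218 to 0.244 reads per mt-Nd5 read.

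Among the 12 tested protein genes, 2 rose and 5 fell with P-Mn@mHSA against PBS, and 2 rose and 8 fell with P-Mn/TI@mHSA against PBS. Over all genes tested 24.3% were higher and 24.1% lower in the first comparison, and 27.1 and 27.3% in the second. The median log2 fold changes of the 12 protein genes were -0.23 and -0.36. In both comparisons the protein genes that rose were mt-Nd2 and mt-Nd3.

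Complex I takes electrons from NADH, and 7 of its core subunits are mitochondrially encoded. mt-Nd2 (MT, 3914 to 4951) stood at 517.1, 544.0 and 533.4 CPM in PBS, 767.2, 831.1 and 775.0 with P-Mn@mHSA, and 757.2, 825.3 and 724.6 with P-Mn/TI@mHSA. All 6 particle libraries lay above PBS and the particle groups overlapped. The log2 fold changes against PBS were 0.57 ± 0.06 (edgeR adjusted p = 9.8e-08) and 0.53 ± 0.06 (edgeR adjusted p = 2.25e-07). mt-Nd3 (MT, 9459 to 9806) was far less counted, at 10.2 to 12.7 CPM in PBS, 15.6 to 28.3 with P-Mn@mHSA and 12.6 to 17.9 with P-Mn/TI@mHSA. It rose by 0.85 ± 0.18 (edgeR adjusted p = 0.000478) with P-Mn@mHSA. In P-Mn/TI@mHSA it rose by 0.45 ± 0.18 (edgeR adjusted p = 0.0414), but there the groups overlapped, and the call was lost in 8 of 16 alternative settings.

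mt-Nd1 (MT, 2751 to 3707) lies directly upstream of mt-Nd2, apart from 3 tRNA genes, and behaved differently. It stood at 1589, 1402 and 1289 CPM in PBS, 1349, 1900 and 1307 with P-Mn@mHSA, and 991.7, 1218 and 1255 with P-Mn/TI@mHSA. P-Mn@mHSA overlapped PBS, and P-Mn/TI@mHSA lay below it. The log2 fold changes were 0.09 ± 0.11 (edgeR adjusted p = 0.524) and -0.30 ± 0.11 (edgeR adjusted p = 0.0229), and the second was lost in 5 of 16 alternative settings. The number of mt-Nd2 reads per mt-Nd1 read was 0.325 to 0.414 in PBS, 0.438 to 0.593 with P-Mn@mHSA and 0.577 to 0.764 with P-Mn/TI@mHSA, a ratio chosen after its values were seen.

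Both mt-Nd5 and mt-Nd4 were lower in both particle groups, and mt-Nd4l was called in neither. mt-Nd5 (MT, 11742 to 13565) stood at 1359, 1466 and 1188 CPM in PBS, 864.5, 1056 and 942.7 with P-Mn@mHSA, and 942.4, 1063 and 944.2 with P-Mn/TI@mHSA. Its log2 fold changes were -0.49 ± 0.08 (edgeR adjusted p = 2.53e-05) and -0.44 ± 0.08 (edgeR adjusted p = 5.66e-05), with no overlap with PBS. mt-Nd4 (MT, 10167 to 11544) fell by 0.27 ± 0.08 and 0.32 ± 0.08 on the log2 scale (edgeR adjusted p = 0.00696 and 0.00164). mt-Nd4l (MT, 9877 to 10173) had only 27 to 40 counts per library and passed the threshold in no comparison (edgeR adjusted p = 0.516, 0.774 and 0.843).

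mt-Nd6 (MT, 13552 to 14070, minus strand) is the only protein gene transcribed from the strand opposite to the others. It stood at 318.0, 323.1 and 262.3 CPM in PBS, 195.7, 232.2 and 205.7 with P-Mn@mHSA, and 208.4, 247.1 and 230.6 with P-Mn/TI@mHSA. It fell by 0.51 ± 0.08 (edgeR adjusted p = 2.42e-05) and 0.40 ± 0.08 (edgeR adjusted p = 0.000305) on the log2 scale. Relative to the protein genes of the other strand, its log2 ratio was 0.26 higher with P-Mn/TI@mHSA than in PBS (exact permutation p = 0.1), but -0.19, thus lower, when the most counted gene of each class, mt-Co1 among them, was left out. Relative to its neighbour mt-Nd5 it kept a narrow range of 0.218 to 0.244 reads per read in all 9 libraries, and the groups overlapped. The genes run toward each other and overlap by 14 bases. The sources used here do not give whether the counting used strand, so reads of mt-Nd6 and reads of the opposite strand at that place cannot be told apart. The last 40 bases of both are shown because they hold this overlap, in capitals, which is the same DNA read in both directions (GRCm38, mt-Nd5 chrMT:13526-13565 on the plus strand, mt-Nd6 chrMT:13552-13591 on the minus strand, sequences from GENCODE M21).
mt-Nd5 end: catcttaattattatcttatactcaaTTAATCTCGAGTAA
mt-Nd6 end: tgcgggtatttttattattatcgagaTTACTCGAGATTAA

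Complex III is represented by 1 gene, mt-Cytb (MT, 14145 to 15288), which encodes cytochrome b. It stood at 1384, 1362 and 1181 CPM in PBS, 1264, 1619 and 1225 with P-Mn@mHSA, and 1060, 1239 and 1247 with P-Mn/TI@mHSA. The groups overlapped in all comparisons, and the log2 fold changes of 0.06 ± 0.09 and -0.15 ± 0.09 against PBS did not pass the threshold (edgeR adjusted p = 0.57 and 0.167).

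Complex IV, cytochrome c oxidase, passes electrons to oxygen, and its 3 catalytic subunits are mitochondrially encoded. mt-Co1 (MT, 5328 to 6872) was the most counted member. It stood at 14340, 13130 and 11200 CPM in PBS, 7694, 10620 and 7355 with P-Mn@mHSA, and 6221, 7562 and 6891 with P-Mn/TI@mHSA. All particle libraries lay below PBS. The log2 fold changes were -0.59 ± 0.10 (edgeR adjusted p = 8.36e-05) and -0.90 ± 0.11 (edgeR adjusted p = 3.37e-07). The difference between the particle groups, -0.31 ± 0.10, did not pass the threshold (edgeR adjusted p = 0.0964).

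mt-Co2 (MT, 7013 to 7696) stood at 82.8, 78.1 and 109.1 CPM in PBS, 54.2, 52.2 and 55.9 with P-Mn@mHSA, and 54.2, 56.8 and 48.9 with P-Mn/TI@mHSA. It fell by 0.73 ± 0.10 (edgeR adjusted p = 3.22e-06) and 0.76 ± 0.10 (edgeR adjusted p = 1.66e-06) on the log2 scale. All of its sequence is also found in nuclear transcripts, so its reads cannot be told from those of its copy Gm28661. That copy stood at 55.7, 57.8 and 48.3 CPM in PBS, and at 36.3, 126.7 and 39.9 with P-Mn@mHSA. The low mt-Co2 level in replicate 2 of P-Mn@mHSA thus depends on how reads were divided, and this part was not tested. mt-Co3 (MT, 8607 to 9390) stood at 148.8, 126.0 and 120.1 CPM in PBS, 103.2, 163.3 and 100.9 with P-Mn@mHSA, and 78.5, 87.3 and 84.0 with P-Mn/TI@mHSA. The P-Mn/TI@mHSA libraries lay below all others, with log2 fold changes of -0.66 ± 0.13 (edgeR adjusted p = 0.000156) against PBS and -0.56 ± 0.13 (edgeR adjusted p = 0.0167) against P-Mn@mHSA. Against PBS, P-Mn@mHSA was at -0.10 (edgeR adjusted p = 0.517), and at -0.36 (edgeR adjusted p = 0.000538) without its replicate 2.

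ATP synthase has 2 mitochondrially encoded subunits of its membrane part. mt-Atp6 (MT, 7927 to 8607) stood at 69.0, 63.8 and 57.2 CPM in PBS, 43.3, 74.4 and 45.5 with P-Mn@mHSA, and 32.1, 37.8 and 35.2 with P-Mn/TI@mHSA. Replicate 2 of P-Mn@mHSA was above every PBS library and the other two were below. The log2 fold changes were -0.22 ± 0.14 (edgeR adjusted p = 0.197) and -0.85 ± 0.14 (edgeR adjusted p = 2.99e-05) against PBS, and -0.63 ± 0.14 (edgeR adjusted p = 0.0145) between the particle groups. Without replicate 2, P-Mn@mHSA was lower than PBS by -0.51 (edgeR adjusted p = 6.94e-05). mt-Atp8, which shares a transcript with mt-Atp6, had 0 to 7 counts per library and was not tested.

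The 4 members that were lower with the inhibitor than without it were mt-Rnr2, mt-Nd1, mt-Atp6 and mt-Co3. In P-Mn@mHSA, replicate 2 was the highest library for 12 of the 13 mt- genes with over 5000 counts in all. Without it, only mt-Rnr2 was still called, at -0.52 (edgeR adjusted p = 5.47e-05). mt-Co3 was then at -0.29 (edgeR adjusted p = 0.0655), mt-Atp6 at -0.34 (edgeR adjusted p = 0.0692) and mt-Nd1 at -0.20 (edgeR adjusted p = 0.261). Without replicate 1 of P-Mn/TI@mHSA, 1 member was called, and without its replicate 3, 2 were called. In P-Mn@mHSA against PBS, leaving out replicate 2 gave 4 higher and 8 lower members.

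**Figure D3:**
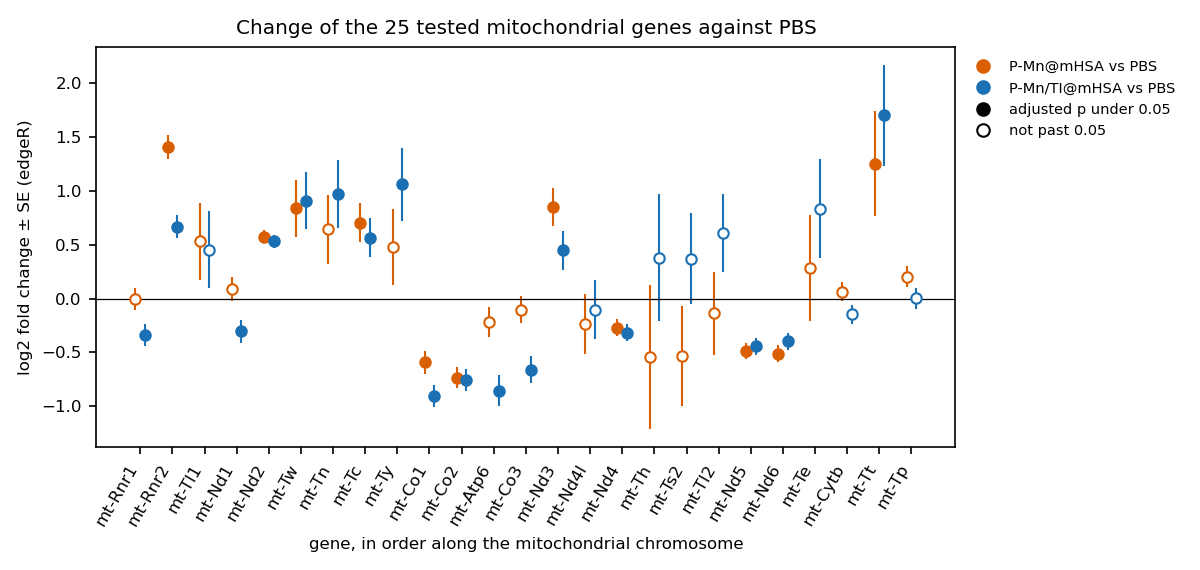
log2 fold change against PBS (points, with SE from edgeR) of the 25 tested mitochondrial genes, in gene order, for both particle groups. Filled points have an adjusted p under 0.05. Genes upstream of mt-Co1 hold most of the rises, and mt-Co1, mt-Co2, mt-Nd4, mt-Nd5 and mt-Nd6 are below 0 in both groups.

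The tRNA genes deliver the amino acids for mitochondrial translation. All 22 together had 1036 to 1536 counts per library, and 11 passed the filter. In P-Mn@mHSA against PBS 3 rose and 0 fell, and with P-Mn/TI@mHSA against PBS 5 rose and 0 fell, with median log2 fold changes of 0.48 and 0.61 over the 11. Over all genes tested 24.3% were higher and 24.1% lower in the first comparison, and 27.1 and 27.3% in the second. The 3 of 11 higher with P-Mn@mHSA are thus near the share over all genes. mt-Tt had 3 to 10 counts in the PBS libraries, so it may have passed the filter only through the particle groups. Its calls thus carry no weight of their own. The other called tRNAs, mt-Tc, mt-Tw, mt-Tn and mt-Ty, had at least 14 counts in each PBS library. Between the particle groups 0 of the 11 were called (edgeR), beside 3.82% of all genes tested.

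The most counted was mt-Tp (tRNA for proline), at 60.8, 51.7 and 56.4 CPM in PBS, 61.1, 74.95 and 58.5 with P-Mn@mHSA, and 62.0, 57.9 and 49.4 with P-Mn/TI@mHSA. Its groups overlapped, and the log2 fold changes of 0.20 and 0.00 did not pass the threshold (edgeR adjusted p = 0.0921 and 0.982). mt-Tc (cysteine) was next, at 4.85 to 6.48 CPM in PBS, 7.65 to 11.9 with P-Mn@mHSA and 7.77 to 8.87 with P-Mn/TI@mHSA. It rose by 0.71 ± 0.18 (edgeR adjusted p = 0.00307) and 0.57 ± 0.18 (edgeR adjusted p = 0.0127), the latter lost without replicate 2 of PBS (edgeR adjusted p = 0.0668). mt-Tw (tryptophan) rose by 0.84 ± 0.26 (edgeR adjusted p = 0.0122) and 0.91 ± 0.26 (edgeR adjusted p = 0.00573), from 1.58 to 2.80 CPM in PBS. Without replicate 1 of PBS or without replicate 2 of P-Mn@mHSA, the first of these calls was lost (edgeR adjusted p of up to 0.0685).

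mt-Tn (asparagine) was at 0.64 ± 0.32 (edgeR adjusted p = 0.107) with P-Mn@mHSA and rose by 0.97 ± 0.31 (edgeR adjusted p = 0.0122) with P-Mn/TI@mHSA. That call was lost without replicate 3 of PBS or of P-Mn/TI@mHSA (edgeR adjusted p of up to 0.0771). mt-Tl1 (leucine) did not pass the threshold, at 0.53 and 0.45 (edgeR adjusted p = 0.23 and 0.298). The other called tRNAs, named after their values were seen, were mt-Tt (threonine), at 1.25 and 1.70 (edgeR adjusted p = 0.0389 and 0.00401) from 3 to 10 counts in the PBS libraries, and mt-Ty (tyrosine), at 1.06 (edgeR adjusted p = 0.0108) with P-Mn/TI@mHSA. The mt-Tt call with P-Mn@mHSA was lost in 7 of 16 alternative settings, at adjusted p of up to 0.168, among them DESeq2, library totals and the fits without replicate 1 or 2 of either group. The mt-Ty call was lost without replicate 3 of PBS or replicate 2 of P-Mn/TI@mHSA (edgeR adjusted p of up to 0.0953). The tRNA reads per 100 protein reads were 0.372 to 0.443 in PBS, 0.629 to 0.654 with P-Mn@mHSA and 0.647 to 0.846 with P-Mn/TI@mHSA. Their log2 differences from PBS were 0.70 and 0.87 (exact permutation p = 0.1 for both). Over genes with little nuclear sequence, a choice made after seeing the data, they were 0.31 and 0.40. The lower mt-Co1 enters this ratio too, and mt-Tp, which was not called, holds most of the tRNA counts.

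The nuclear copies bear on which mitochondrial genes can be measured. A pair of transcripts was compared by 50-mers, all stretches of 50 bases, in GENCODE M21, an annotation of GRCm38. On chromosome 1, 7 unprocessed pseudogenes had at least 50% of their 50-mers in mt- genes. They lay on 1 strand in the same order as mt-Co1, mt-Co2, mt-Atp6, mt-Co3, mt-Nd3, mt-Nd4l and mt-Nd4. The copies of mt-Co2 (Gm28661), mt-Atp6 (Gm10925), mt-Co3 (Gm28437) and mt-Nd4l (Gm10222) were 100% identical over 681, 678, 783 and 294 bases. The copy of mt-Nd4 (Gm28439) matched its first 876 of 1378 bases without a mismatch. The copy of mt-Nd3 (Gm28438) had 1 mismatch in 345 bases, T3C, with positions counted from 1 at the start of the mitochondrial gene and the mitochondrial base first.

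The copy of mt-Co1 (Gm29216) covered its last 492 of 1545 bases. All 6 mismatches, T1056A, C1057T, A1059G, A1060G, C1062A and A1066T, fell in the first 13 bases of the copy, and the 479 bases after them were identical. The place where identity begins is shown with the mismatches in capitals (mt-Co1 chrMT:6381-6413, plus strand, GRCm38, and the first 33 bases of Gm29216, chromosome 1, minus strand).
mt-Co1 stretch: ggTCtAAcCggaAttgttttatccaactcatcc
Gm29216 stretch: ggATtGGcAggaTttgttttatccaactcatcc

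The stretch of MT from the end of these mismatches to the end of the mt-Nd4 copy, 6394 to 11042 or 4649 bases, wholly contains 11 mt- genes. They are mt-Co2, mt-Atp8, mt-Atp6, mt-Co3, mt-Nd3, mt-Nd4l and 5 tRNA genes. These 5 tRNA genes, mt-Ts1, mt-Td, mt-Tk, mt-Tg and mt-Tr, had 0 or 1 counts each over all 9 libraries. The other 17 tRNA genes had a median of 120 counts (range 0 to 7817), and 1 of them had 0 or 1 counts. mt-Tk and mt-Tp are shown as an example of a tRNA inside and one outside this stretch, of nearly equal length, with 1 and 7817 counts in all. mt-Atp8 had 27 counts over all libraries, and its overlap of 43 bases with mt-Atp6 is in capitals (GRCm38: mt-Tk chrMT:7700-7764 and mt-Atp8 chrMT:7766-7969 on the plus strand, mt-Tp chrMT:15356-15422 on the minus strand).
mt-Tk: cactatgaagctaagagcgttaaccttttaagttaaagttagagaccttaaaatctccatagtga
mt-Tp: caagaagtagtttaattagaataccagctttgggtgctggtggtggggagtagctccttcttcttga
mt-Atp8: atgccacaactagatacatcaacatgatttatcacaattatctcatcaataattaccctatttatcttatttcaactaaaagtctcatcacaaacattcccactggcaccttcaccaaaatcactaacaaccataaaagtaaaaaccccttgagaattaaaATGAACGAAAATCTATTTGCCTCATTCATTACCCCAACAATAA

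The level per length was set beside the shared sequence. The share of a gene's 50-mers found in nuclear transcripts was 100% for mt-Co2, 99.9% for mt-Co3, 99.5% for mt-Atp6, 98.8% for mt-Nd4l and 98.0% for mt-Nd3. It was 62.2% for mt-Nd4 and 51.1% for mt-Co1. It was 8.19% for mt-Nd2, 7.61% for mt-Nd5, 1.04% for mt-Rnr2, and 0 for mt-Rnr1, mt-Nd1, mt-Nd6, mt-Cytb, mt-Atp8 and the tRNAs. The 7 rRNA and protein genes under 10%, mt-Atp8 apart, had mean FPKM of 181.7 to 1419 over the 9 libraries, with a median of 594.4. mt-Atp8, with none of its 50-mers found, had the lowest mean of the rRNA and protein genes, 0.999. Its last 43 bases are also the start of mt-Atp6, which Gm10925 matches, but are too few for a 50-mer. Only annotated transcripts were searched, so a nuclear copy of mt-Atp8 or of a tRNA outside them would have been missed. The 7 genes at 50% or more had 7.26 to 6070, with a median of 95.5. mt-Co1 was the highest of all at 6070 although it is partly shared, and the 5 genes at 98% or more ran from 7.26 for mt-Nd4l to 142.4 for mt-Co3. Neighbouring genes read from the same precursor thus differed widely: mt-Nd3 had a mean FPKM of 45.7 and mt-Nd4 of 330.5. The sources used here do not give how reads matching several places were counted, and the part of that in these levels was not tested.

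**Figure D4:**
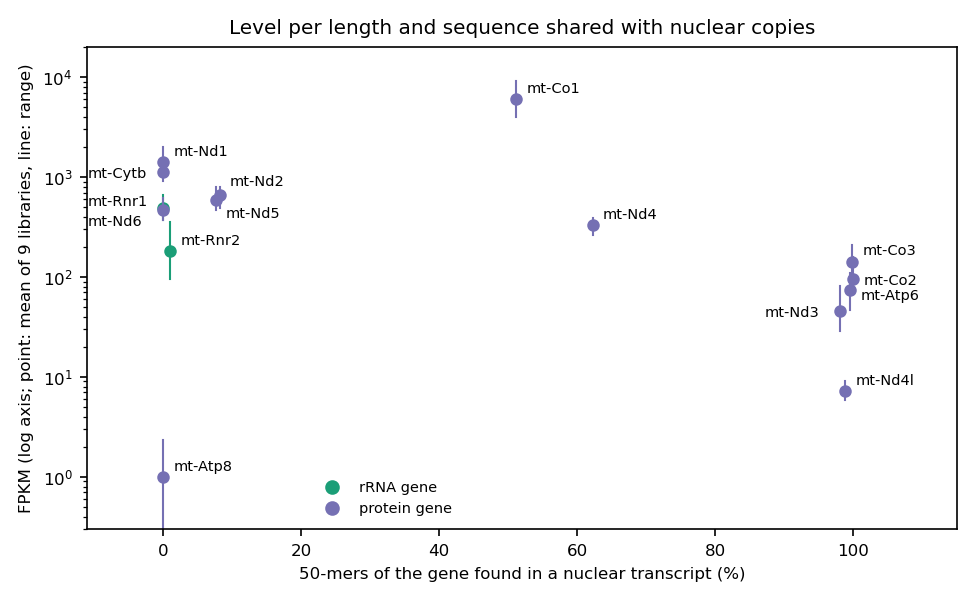
Mean FPKM over the 9 libraries (log axis, with the range as a line) of the 15 mitochondrial rRNA and protein genes against the share of their 50-mers found in a nuclear transcript. The line of mt-Atp8 runs off the axis, since 1 library has 0. The 5 genes at 98% or more lie at or below 142.4, while mt-Co1, at 51.1%, is the highest.

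The counts of the copies were set beside those of the genes they match. mt-Co3 had 1.25 to 1.38 reads per read of Gm28437 in all 9 libraries, and mt-Atp6 had 0.733 to 0.886 per read of Gm10925. The pairs thus kept nearly constant proportions while their levels differed between groups. Gene and copy are identical over the length of these copies, so their counts are not separate measurements. mt-Nd4, of which only the first part is shared, had 37.3 to 47.0 reads per read of Gm28439. mt-Co2 had 1.35 to 2.26 reads per read of Gm28661 in 8 libraries and 0.412 in replicate 2 of P-Mn@mHSA, where the copy had 1815 counts against 419 to 846 elsewhere. mt-Co1 had 193.0 to 239.7 reads per read of Gm29216 in 8 libraries and 78.2 in replicate 1 of P-Mn@mHSA, where the copy had 1453 counts.

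In P-Mn@mHSA against PBS, 1 of the 7 copies rose and 1 fell, beside 48.5% of all genes called. Gm28438, the copy of mt-Nd3, was at 0.53 ± 0.15 (edgeR adjusted p = 0.00598), and Gm28439, the copy of mt-Nd4, was at -0.44 ± 0.14 (edgeR adjusted p = 0.0113). Both have the direction of the mitochondrial gene. These copies match their genes with at most 1 mismatch, so most reads of copy and gene cannot be told apart by sequence. The shared direction is thus no separate support. Without replicate 2 of P-Mn@mHSA 1 rose and 4 fell, and without replicate 3 of P-Mn@mHSA or replicate 1 of PBS only Gm28438 was called. In P-Mn/TI@mHSA against PBS 0 rose and 4 fell, beside 54.4% of all genes called. Gm10925 was at -1.01, Gm28437 at -0.66, Gm29216 at -1.10 and Gm28439 at -0.51 (edgeR adjusted p = 2.17e-05, 5.53e-05, 0.000174 and 0.00346). Between the particle groups 3 were lower with the inhibitor, beside 3.82% of all genes called: Gm28437 at -0.57, Gm10925 at -0.68 and Gm29216 at -1.05 (edgeR adjusted p = 0.00811, 0.0231 and 0.00827). Without replicate 1 of P-Mn/TI@mHSA, 0 of them were called, and without its replicate 2 or replicate 2 of P-Mn@mHSA, 2 were. A further copy of mt-Co1 on chromosome 2, Gm13340, with 27.5% of its 50-mers shared and 177 counts in all, was at -0.91 ± 0.35 (edgeR adjusted p = 0.0345) with P-Mn/TI@mHSA against PBS and was named after its values were seen. Gm28661 passed in no comparison, at 0.33, -0.64 and -0.97 (edgeR adjusted p = 0.353, 0.0669 and 0.0613).

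**Figure D5:**
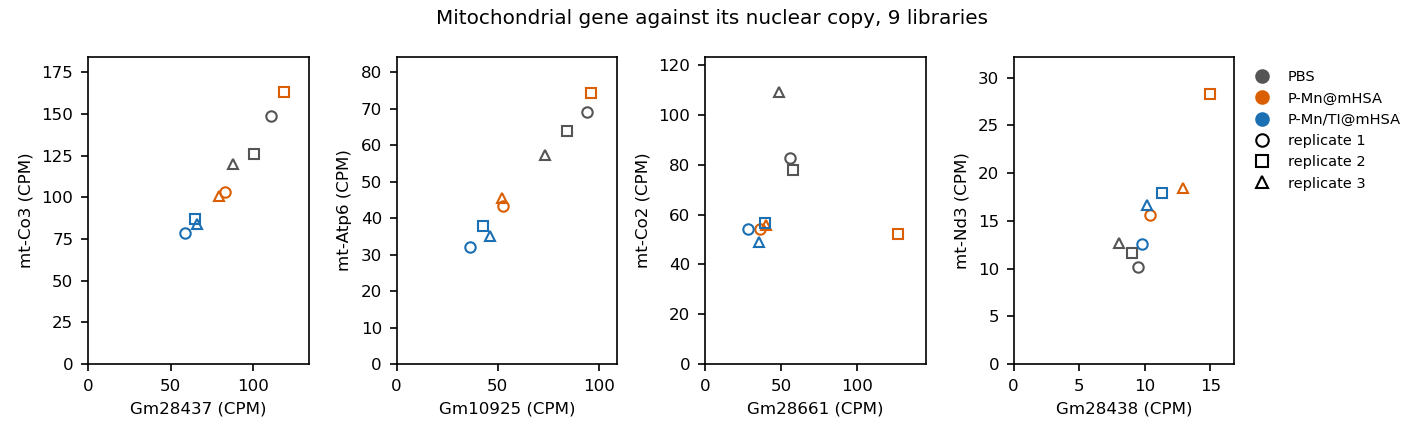
TMM-normalised read count (CPM) of 4 mitochondrial genes against that of their nuclear copies in the 9 libraries. mt-Co3 and mt-Atp6 lie along a line with their copies, and in the panel of mt-Co2 replicate 2 of P-Mn@mHSA stands apart, with 126.7 CPM of Gm28661.

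The nuclear genes that serve these transcripts were described through lists, with the counts called by edgeR over all genes tested. They are to be read against the 48.5% of all genes called with P-Mn@mHSA against PBS (24.3% higher, 24.1% lower) and the 54.4% with P-Mn/TI@mHSA (27.1% higher, 27.3% lower). Of 10 tested genes of mitochondrial transcription, 0 rose and 2 fell with P-Mn@mHSA against PBS, and 2 rose and 4 fell with P-Mn/TI@mHSA against PBS. Mterf1a, a paralog of Mterf1b and a factor that in humans ends transcription downstream of the rRNA genes, fell by 1.26 ± 0.30 and 1.27 ± 0.30 (edgeR adjusted p = 0.00148 and 0.00105). Mterf1b fell by 1.40 ± 0.43 (edgeR adjusted p = 0.0103) with P-Mn@mHSA. These paralogs may share reads, so their values are uncertain. Polrmt, the mitochondrial RNA polymerase, rose by 0.33 ± 0.08 (edgeR adjusted p = 0.00117) with P-Mn/TI@mHSA. Twnk, the DNA helicase, stands both in this list and in that of replication, and is counted in each. It rose by 0.48 ± 0.09 (edgeR adjusted p = 8.31e-05) in the same comparison. Mterf4, which takes part in building the large ribosomal subunit, fell by 0.48 ± 0.14 (edgeR adjusted p = 0.00737) there.

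Of 12 replication genes, 1 rose and 2 fell with P-Mn@mHSA, and 2 rose and 2 fell with P-Mn/TI@mHSA. Polg, the catalytic subunit of the mitochondrial DNA polymerase, rose by 0.66 ± 0.07 and 0.85 ± 0.07 (edgeR adjusted p = 1.29e-07 and 2.83e-09). Of 38 genes of RNA processing and modification, 11 rose and 9 fell with P-Mn@mHSA, and 13 rose and 9 fell with P-Mn/TI@mHSA. Fastkd1, of a family of mitochondrial RNA-binding proteins, fell by 0.68 ± 0.09 and 0.59 ± 0.09, and Trnt1, which adds the CCA end to tRNAs, fell by 0.53 ± 0.12 and 0.66 ± 0.12. Of 8 genes of RNA stability and decay, 2 rose and 1 fell with P-Mn@mHSA, and 1 rose and 3 fell with P-Mn/TI@mHSA. Lrpprc, which stabilises mitochondrial mRNAs, fell by 0.47 ± 0.07 and 0.34 ± 0.07 (edgeR adjusted p = 1.32e-05 and 0.000292), and Endog, a mitochondrial nuclease, rose by 1.26 ± 0.14 and 1.11 ± 0.14 (edgeR adjusted p = 2.17e-07 and 1.07e-06).

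The users of the RNAs were counted in the same way. Of 22 aminoacyl-tRNA synthetases 5 rose and 2 fell with P-Mn@mHSA, and 10 rose and 2 fell with P-Mn/TI@mHSA. Of 12 translation factors 4 rose and 3 fell, and 4 rose and 5 fell. Of 77 tested mitoribosomal protein genes 24 rose and 4 fell with P-Mn@mHSA, and 24 rose and 12 fell with P-Mn/TI@mHSA, with medians of 0.07 in both. Of 83 tested nuclear genes of oxidative phosphorylation subunits 35 rose and 4 fell, and 33 rose and 7 fell. Their medians were 0.15 and 0.08. Their share called in either direction was no larger than the 48.5 and 54.4% over all genes. More of them rose than the 24.3 and 27.1% over all genes, and fewer fell than the 24.1 and 27.3%. Atp5g1, a nuclear subunit of ATP synthase, rose by 0.53 ± 0.07 and 0.54 ± 0.07. Atp5pb, another nuclear subunit of it, fell by 0.38 ± 0.07 (edgeR adjusted p = 0.000189) with P-Mn/TI@mHSA, where mt-Atp6 also fell. Of 9 regulators of biogenesis 4 rose and 2 fell, and 4 rose and 1 fell. Over all these lists, of 269 tested genes 86 rose and 29 fell with P-Mn@mHSA, and 92 rose and 45 fell with P-Mn/TI@mHSA. The shares called in either direction were below the 48.5 and 54.4% over all genes. The shares that rose were above the 24.3 and 27.1% over all genes, and those that fell below the 24.1 and 27.3%. Scaled by library totals alone, the split was 57 to 49 and 62 to 66. Over all genes tested, the same scaling gave 2263 higher to 3720 lower and 2646 to 4063. The main scaling gave 3028 to 3007 and 3378 to 3403 over all genes. The split thus moved with the scaling in the lists and over all genes alike. Under either scaling, rises made up more of the called list genes than of all called genes, in both comparisons. Between the particle groups 5 of the 269 list genes were called, a share below the 3.82% of all genes tested. Twnk at 0.34, Myc at 0.42 and Gfm2, a ribosome recycling factor, at 0.31 were higher with the inhibitor (edgeR adjusted p = 0.0321, 0.0263 and 0.0204). Mrpl35 at -0.41 and Mrpl1 at -0.57 were lower (edgeR adjusted p = 0.0431 and 0.0237).

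Double-stranded RNA can form from mitochondrial transcripts of both strands, and 5 genes of its sensing were looked up, among them Tlr3, an endosomal receptor. In P-Mn@mHSA 3 rose and 0 fell, beside 24.3% of all genes higher and 24.1% lower: Ifih1 by 0.46 ± 0.10, Ddx58 by 0.71 ± 0.07 and Tlr3 by 0.84 ± 0.22 (edgeR adjusted p = 0.000481, 1.29e-08 and 0.00341). In P-Mn/TI@mHSA 1 rose and 1 fell, beside 27.1 and 27.3% of all genes, Ddx58 by 0.47 ± 0.07 and Eif2ak2 by -0.48 ± 0.08 (edgeR adjusted p = 3.81e-06 and 5.53e-05). Between the particle groups 3 were lower with the inhibitor, beside 2.34% of all genes, Ifih1, Ddx58 and Eif2ak2 (edgeR adjusted p = 0.0126, 0.037 and 0.025). Any link between these genes and the mitochondrial transcripts was not tested.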

How the data were processed

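Per the file headers, the deposited table holds a raw read count and an FPKM value per gene and library. The deposited FPKM equalled count over length and 1 constant per library (largest relative deviation 5.1e-15). The submitters' processing notes name cutadapt 1.9, FastQC and GRCm38. Not given in the sources used here are the aligner, the counter, and whether strand was used or multiple matches were kept. The start and end of all 37 mt- genes equalled GENCODE M21.

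Counts were tested with edgeR 4.0.16 in R 4.3.3 (filterByExpr, 12454 genes kept, TMM scaling, 1 quasi-likelihood fit to 9 libraries with a mean per group, two-sided, adjusted p under 0.05), and the fit was tested on simulated data. SE is the log2 fold change over the square root of F. Ratios were tested by exact permutation over libraries. DESeq2 1.42.0 and limma 3.58.1 on log2(FPKM + 1) were alternatives, beside other scalings, filters and left-out libraries. Members, lists and named genes were chosen with earlier results of these data known. Named genes are all mt- protein and rRNA genes, the 5 most counted tRNAs and copies, members called between the particle groups, and per list the 2 called genes of lowest p in each direction whose groups do not overlap, of which a part is named. Replicate numbers did not pair libraries: deviations of same-numbered libraries correlated at -0.07 to 0.06.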

Additional observations from a re-analysis of the deposited data

How the results depend on the processing

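Against PBS, the number of mt- genes called stayed within 1.5 times the reported count under every alternative run. Of 41 called results for single genes and copies, 26 kept their call under all alternatives, 15 lost it under at least 1 and 0 changed direction. Between the particle groups the counts moved most. The 4 mt- genes became 8 with no low-count filter, 1 by DESeq2, 1 by limma with either pseudocount (1 or 0.1), and 1 to 6 with a library left out. The 3 nuclear copies became 1 by DESeq2, 0 by limma with either pseudocount and 0 to 4 with a library left out. The 5 list genes became 9 with no filter, 9 by DESeq2, 0 by limma with either pseudocount and 0 to 19 with a library left out. The counts over all genes moved too. The 476 genes called between the particle groups became 791 with no filter, 665 by DESeq2, and 144 and 140 by limma. With a library left out they ran from 129 to 794. The 2 copies called with P-Mn@mHSA against PBS became 4 with no filter and 1 to 5 with a library left out. The log2 ratio of mt-Nd6 to the other strand with P-Mn/TI@mHSA against PBS turned from 0.26 to -0.19 without the most counted gene of each class and to -0.22 with only genes under 10% shared. With the replicate number as a block, 5 mt- genes were higher and 5 lower with P-Mn@mHSA against PBS, 8 and 9 with P-Mn/TI@mHSA, and 0 and 3 between the particle groups. The numbers do not pair the samples. The causes were not tested. With 3 libraries a group, permutation p cannot go below 0.1, and genes with few counts, such as mt-Atp8 and the tRNAs that were not tested, are limited by depth.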
